A study of Mus musculus with 6 samples.

Results

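Pax3, Meox1, Tcf15 and Foxc2 encode transcription factors of the paraxial mesoderm, the tissue on both sides of the neural tube that is cut into somites. They were taken as every probe set of the array that the platform annotation assigns to exactly 1 of these 4 symbols. The rule found 5 probe sets (2 for Pax3 and 1 for each of the other genes), for 4 of the 10290 genes in the table. RNA came from the anterior presomitic mesoderm (PSM) of mouse embryos on a background labelled C57BL6/6J at embryonic day 8.75, dissected away from the posterior PSM and the somites. The mutant genotype was R26R AC/AC;T-Cre and the control genotype R26R AC/AC, so both genotypes carried the AC allele on both chromosomes and differed in the T-Cre transgene. There were 3 pools per genotype, named as biological replicates, each of 3 PSMs and each on 1 array.

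In T-Cre mice the promoter of T (Brachyury) drives Cre recombinase in the primitive streak and in mesoderm formed from it. The labels do not spell out AC; it is read here, from knowledge of the study, as A-CREB, a dominant-negative protein that blocks CREB family factors and is switched on by Cre. No pool carried T-Cre without the AC allele, so effects of Cre and of AC cannot be told apart.

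As background, somites pinch off from the anterior end of the PSM as epithelial balls, and each ball is then divided into a dorsal dermomyotome, which gives muscle and dermis, and a ventral sclerotome, which gives vertebrae and ribs. Pax3, a paired-box and homeodomain factor, marks the anterior PSM, the dermomyotome and muscle precursors, and also the dorsal neural tube and neural crest. Tcf15 (paraxis) is a basic helix-loop-helix factor that the somite needs to become epithelial, and Meox1 is a homeobox factor that acts with Meox2 in somite and sclerotome development. Foxc2 is a forkhead factor of the PSM, somite and sclerotome that acts redundantly with its paralogue Foxc1, and mice lacking both form no somites. Foxc2 is also expressed in head mesenchyme and developing vessels.

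In mutant PSM, Pax3 was 1.92-fold higher than in control PSM (95% confidence interval 1.51 to 2.45, n = 3 pools per genotype) and was the only gene of the 4 that passed the test. That call was lost when mutant 1, mutant 2, control 2 or control 3 was left out (adjusted p 0.0805 to 0.178). Meox1 and Tcf15 had 0.97 and 0.93 times the control level, with intervals that spanned 1. Foxc2 had 0.59 times the control level (0.36 to 0.98), with pools that overlapped between genotypes, and did not pass after adjustment. The test was limma on log2 of the signal plus 1, and a change was called at a Benjamini-Hochberg adjusted p under 0.05 over the 11731 probe sets whose mean log2 signal lay at or above the 40th percentile. Of these, 0.690% were called, 29 higher and 52 lower in mutant PSM. Of the 5 probe sets, 4 were tested in this way, and 1 Pax3 probe set lay at the 39.5th percentile, just under the filter, so its values come from the same fit on all 19551 probe sets, of which 0.558% were called.

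Median signal per array lay between 491 and 535. The 3' to 5' signal ratio of the spiked dap transcript, which enters before labelling, parted the arrays into mutant 1, mutant 2 and control 1, with ratios of 19.6 to 23.8, and mutant 3, control 2 and control 3, with ratios of 10.2 to 12.2. The first are called high-ratio arrays below. Control 1, whose median signal was the lowest, also stood apart in the array control BioB, with a signal of 531 against 62.4 to 108 on the remaining arrays. Among markers of PSM, Tbx6, Dll1, Dll3, Hes7 and Ripply2 lay above the filter. Lfng and Mesp2 lay under it, and Msgn1 was not analysed here. All the measured markers were lower in mutant PSM. Log2 differences were −0.76 for Tbx6, −0.72 for Dll1, −0.67 for Dll3, −0.25 for Hes7 and −1.56 for Ripply2. Under the filter, Lfng had −0.64 and Mesp2 −0.43. The genotypes overlapped for Dll3, Lfng and Mesp2 only. Of the markers above the filter, only Ripply2 passed. The part of PSM cells in the differences of Pax3 and Foxc2 was not tested. In pooled tissue, fewer cells of a type and less RNA per cell cannot be told apart. The array has 1 value per probe set, so levels are compared between pools and not between genes. Ratios of gene pairs and summed signals of lists are likewise compared between genotypes, and bright probe sets weigh most in a sum.

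**Figure D1:**
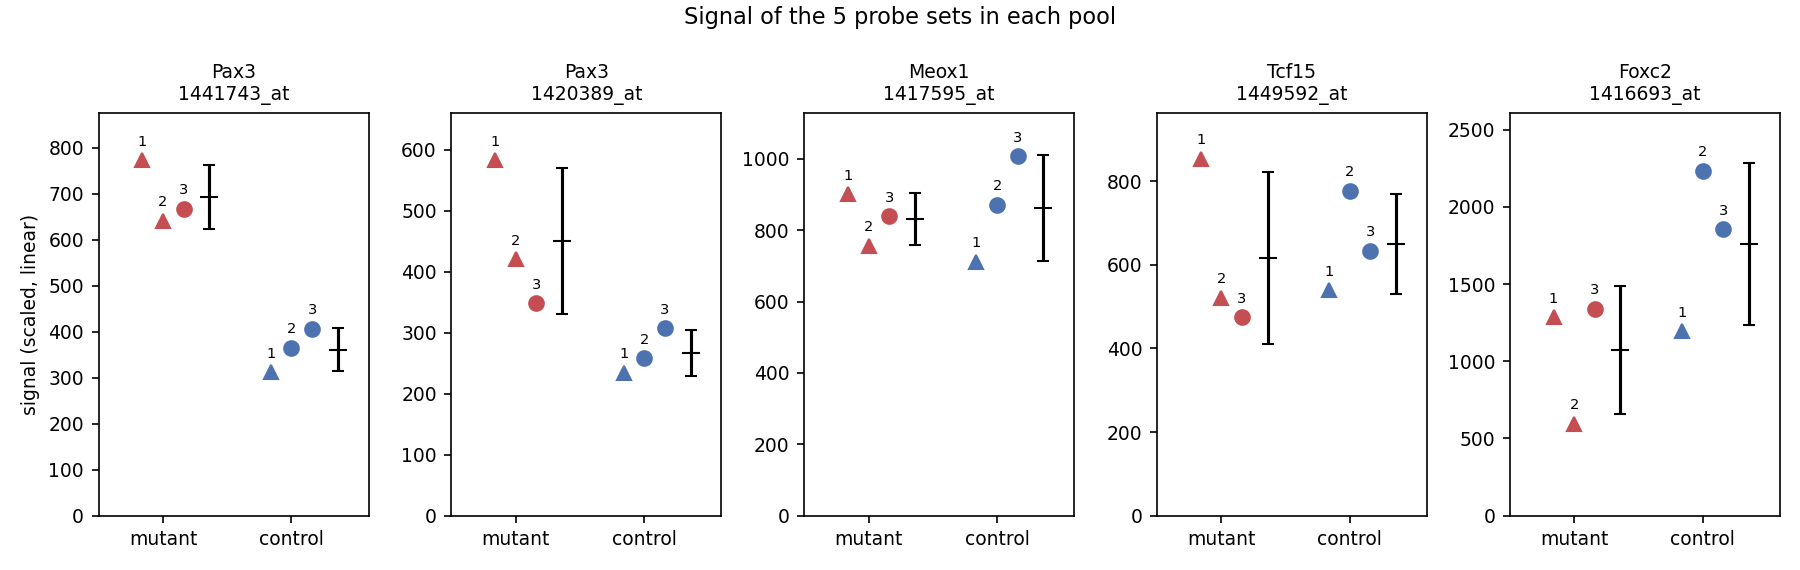
Linear scaled signal (vertical axis, arbitrary units) of the 5 probe sets in each of 3 mutant (red) and 3 control (blue) pools, numbered by replicate. Triangles are high-ratio arrays, circles the others, and the black bar is mean ± SD. All mutant pools lie above all control pools for both Pax3 probe sets, and the genotypes overlap for Meox1, Tcf15 and Foxc2.

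Pax3 was read by 2 probe sets. The brighter, 1441743_at, had signals of 773, 642 and 667 in mutant pools 1, 2 and 3, against 312, 365 and 407 in control pools 1, 2 and 3. Every mutant pool lay above every control pool, and the gap between the genotypes was wider than the range within either. The mean was 694 ± 69.6 in mutant PSM and 361 ± 47.4 in control PSM (SD, n = 3 each). The log2 difference was 0.94 (SE 0.15, limma adjusted p = 0.0314). By size, 0.750% of tested probe sets differed at least as much in either direction. Groups that did not overlap, with mutant higher, were found for 9.53% of tested probe sets, so that separation by itself is common on these arrays.

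The dimmer Pax3 probe set, 1420389_at, had signals of 582, 420 and 348 in mutant pools 1, 2 and 3, against 234, 258 and 307 in control pools 1, 2 and 3. All mutant pools again lay above all control pools, but mutant 3 lay close to control 3. The log2 difference was 0.73 (SE 0.21, 95% confidence interval 0.27 to 1.20), and in the fit without a filter it did not pass (limma adjusted p = 0.171). Over all 19551 probe sets, 10.9% had mutant pools all above control pools.

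The probe sets of Pax3 differed in how they ranked the mutant pools. On the log2 scale the brighter one stood above the dimmer one by 0.41, 0.61 and 0.94 in mutant pools 1, 2 and 3, against 0.41, 0.50 and 0.40 in control pools 1, 2 and 3. Mutant 3 was the pool in which the probe sets differed most. When the probe sets of each gene were averaged before the fit, Pax3 had a log2 difference of 0.84 (SE 0.16, adjusted p = 0.0464).

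Within the high-ratio arrays, with 2 mutant pools against 1 control pool, the log2 difference of the brighter Pax3 probe set was 1.17, and within the others, with 1 mutant pool against 2, it was 0.79. The same values for the dimmer one were 1.08 and 0.31. With 1 pool left out, the log2 difference of the brighter probe set lay between 0.84 and 1.03. Its call was lost without mutant 1 (adjusted p = 0.178), mutant 2 (0.126), control 2 (0.108) or control 3 (0.0805) and was kept without mutant 3 (0.0474) or control 1 (0.0329).

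**Figure D2:**
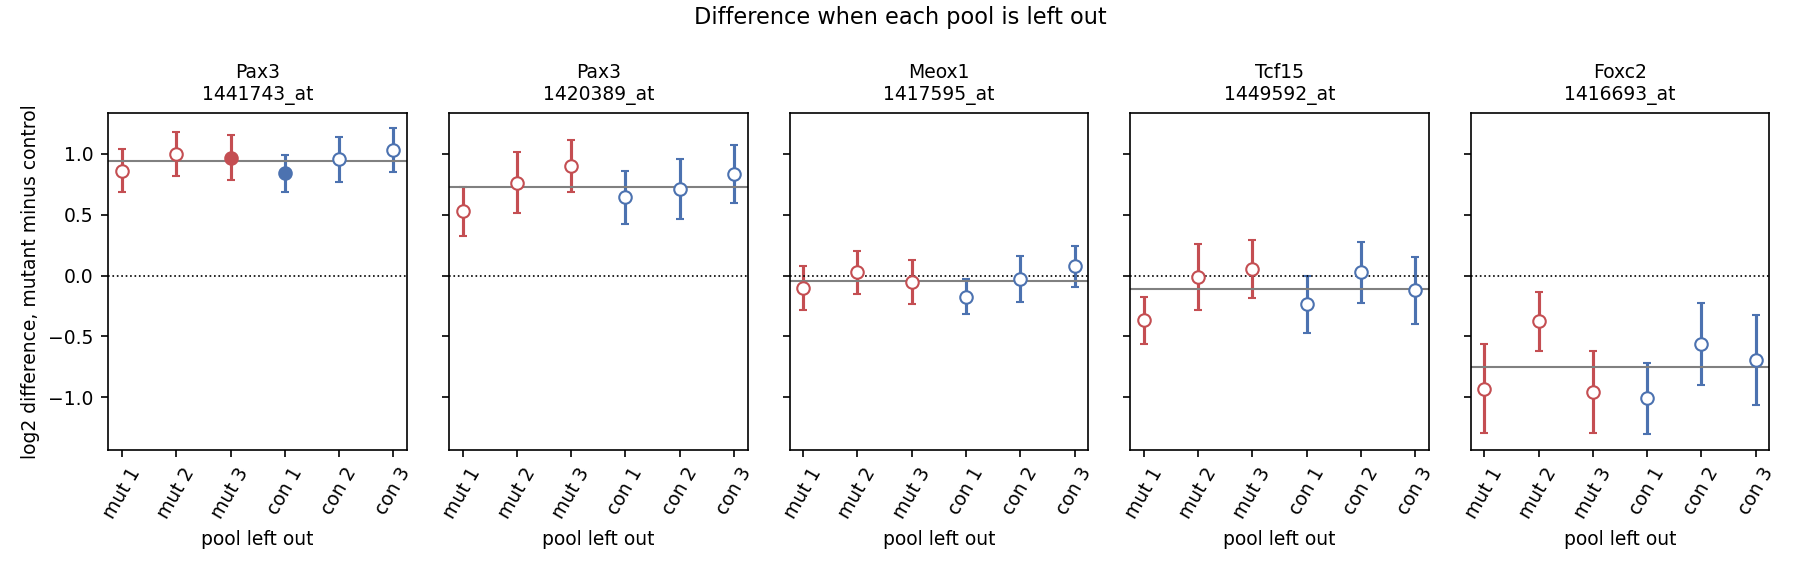
Log2 difference, mutant minus control, with its SE (vertical axis), for each of the 5 probe sets when the pool named on the horizontal axis is left out. Filled points have an adjusted p under 0.05, open points do not, and the grey line is the value with all 6 pools. Pax3 stays above 0 in all 6 fits for both probe sets and Foxc2 below 0, while Meox1 and Tcf15 lie on both sides of 0.

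Tcf15 had signals of 853, 521 and 475 in mutant pools 1, 2 and 3, against 538, 777 and 633 in control pools 1, 2 and 3. The highest and the lowest values of the 6 were both in mutant pools, and the genotypes overlapped fully. The mean was 616 ± 206 in mutant PSM and 649 ± 120 in control PSM (SD, n = 3 each). The log2 difference of −0.11 (SE 0.23, adjusted p = 0.886) had a 95% confidence interval of −0.63 to 0.41, so changes of up to 1.33-fold higher or to 0.65 times the control level lie within it. Within the high-ratio arrays the difference was 0.31, and within the others −0.56.

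Values were also taken for the partners of Tcf15, the E proteins that form dimers with it. Tcf3 had a log2 difference of −0.21 (adjusted p = 0.589), Tcf4 −0.06 (0.857) and Tcf12 0.03 (0.943). None of the 3 passed.

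Meox1 had signals of 901, 756 and 839 in mutant pools 1, 2 and 3, against 711, 871 and 1007 in control pools 1, 2 and 3. The mutant values lay inside the range of the control values. The mean was 832 ± 72.7 in mutant PSM and 863 ± 148 in control PSM (SD, n = 3 each). The log2 difference was −0.04 (SE 0.16, adjusted p = 0.939), with a 95% confidence interval of −0.39 to 0.31. This is the narrowest interval among the 3 genes that did not pass. It takes in changes of up to 1.24-fold higher or to 0.76 times the control level.

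Foxc2 had signals of 1286, 597 and 1341 in mutant pools 1, 2 and 3, against 1194, 2233 and 1855 in control pools 1, 2 and 3. Control 1 lay below mutant 1 and mutant 3, so the genotypes overlapped, and mutant 2 was the lowest of the 6. The mean was 1074 ± 414 in mutant PSM and 1761 ± 526 in control PSM (SD, n = 3 each). The log2 difference of −0.75 (SE 0.32) had a 95% confidence interval of −1.48 to −0.03 and an unadjusted p of 0.0423, which 13.6% of tested probe sets matched with a p under 0.05. After adjustment over all tested probe sets it did not pass (adjusted p = 0.346). The SE and interval are limma's, which also draw on the spread of the other tested probe sets. An exact permutation test of the log2 signals of Foxc2 gave p = 0.3, where 0.1 is the smallest possible.

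Foxc2 was also lower in high-ratio arrays than in the others, by a log2 difference of −0.87. That value is not adjusted for genotype, and the high-ratio set holds more mutant than control pools, so it includes part of the genotype difference. Within the high-ratio arrays mutant minus control was −0.45, and within the others −0.60. With that split in the model the difference was −0.52 (adjusted p = 0.181), and the part of RNA or labelling quality in it was not tested. Without mutant 2 the difference was −0.38, and without control 1 it was −1.01, neither of which passed (adjusted p = 0.711 and 0.130). With limma's array quality weights, which gave control 3 a weight of 4.29 and control 1 a weight of 0.32, Foxc2 passed (−0.89, adjusted p = 0.0354), in a fit that called 1196 probe sets in all.

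**Figure D3:**
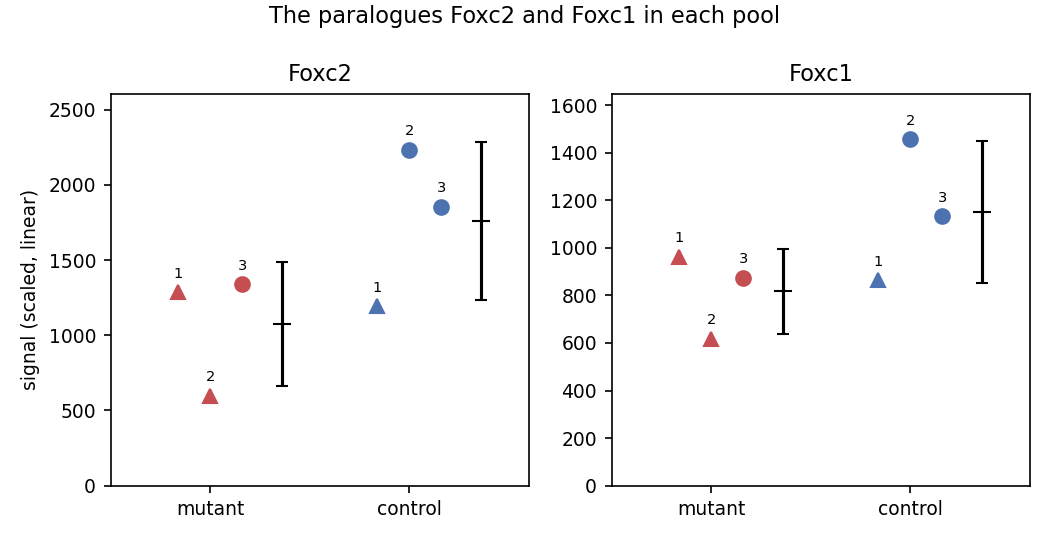
Linear scaled signal (vertical axis, arbitrary units) of Foxc2 (left) and Foxc1 (right) in each of 3 mutant (red) and 3 control (blue) pools, numbered by replicate. Triangles are high-ratio arrays, circles the others, and the black bar is mean ± SD. Mutant 2 is lowest and control 2 highest for both genes.

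Foxc1, the paralogue of Foxc2, had signals of 962, 618 and 874 in mutant pools 1, 2 and 3, against 863, 1457 and 1132 in control pools 1, 2 and 3. Its log2 difference was −0.48 (SE 0.22, adjusted p = 0.383), and the genotypes overlapped. Pearson's r of the log2 signals of Foxc1 and Foxc2 over the 6 arrays, which share their RNA and labelling, was 0.97. Such values are common here, since 228 of 7111 named genes had an r above 0.9 with Foxc2. For Foxc1, as for Foxc2, mutant 2 was the lowest pool and control 2 the highest, so the paralogues ordered both of these pools alike.

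Whether the 4 genes differed by unequal amounts was tested on the log2 ratio of each pair within an array, with the brighter probe set of Pax3. Pax3 minus Foxc2 was −1.01 to 0.10 in mutant pools and −2.61 to −1.93 in control pools, a difference of differences of 1.70. Pax3 minus Tcf15 differed by 1.05 and Pax3 minus Meox1 by 0.99, again without overlap between the genotypes. Meox1 minus Foxc2 differed by 0.71 and did not overlap either. Each of these 4 pairs had an exact permutation p of 0.1, the smallest that 3 pools against 3 allow, and an adjusted value of 0.15 over the 6 pairs, so this permutation test cannot reach 0.05. Tcf15 minus Foxc2 differed by 0.65 (exact permutation p = 0.2, adjusted 0.24) and Meox1 minus Tcf15 by 0.07 (exact permutation p = 0.8, adjusted 0.8), and the genotypes overlapped in both.

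Spread between pools also differed among the 4 genes. On the log2 scale the SD was 0.14 in mutant and 0.19 in control pools for the brighter Pax3 probe set and 0.13 and 0.25 for Meox1. It was 0.45 in mutant and 0.26 in control pools for Tcf15, and 0.66 and 0.46 for Foxc2. Across the 6 arrays, as a description with no test, Pearson's r was 0.63 between Meox1 and Foxc2, 0.52 between Meox1 and Tcf15, 0.50 between Tcf15 and Foxc2, 0.14 between Pax3 and Meox1, 0.02 between Pax3 and Tcf15 and −0.46 between Pax3 and Foxc2.

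The genes most like each of the 4 were taken as the 3 with the highest Pearson's r of log2 signal over the 6 arrays, among 7111 named genes. For Pax3 they were Tmem70 (0.995), Cdon (0.991), a cell surface receptor that promotes myogenesis and Hedgehog signalling, and Krt18 (0.991), a keratin of simple epithelia. For Meox1 they were Irf2bp2 (0.984), Twist1 (0.979), a helix-loop-helix factor of mesoderm and sclerotome, and Srcap (0.976). For Tcf15 they were Capn15 (0.989), whose probe set, an _x_at one, may cross-hybridise, Ninl (0.986) and Adam10 (0.986). For Foxc2 they were Stim2 (0.992), Brpf1 (0.988) and Arrb1 (0.987). With 6 arrays high values are common: 180 of these genes had an r above 0.9 with Pax3, 44 with Meox1, 24 with Tcf15 and 228 with Foxc2.

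Of 41 other transcription factors of the somite and paraxial mesoderm, 21 were in the table and 13 lay above the filter. Of these 13, 1 fell in mutant PSM, 0 rose and 12 did not pass, against 0.856% called over one probe set per gene. Their median log2 difference was −0.23, beside −0.01 over the 7245 genes tested, and 11 of the 13 values were negative. Ripply2, which sets the somite boundary, was the 1 that fell (−1.56, SE 0.14, adjusted p = 0.00150). It had 410, 347 and 332 in mutant pools 1, 2 and 3, against 1021, 1194 and 995 in control pools 1, 2 and 3, a gap wider than the spread in either genotype, and it was called whichever pool was left out.

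Tbx6, the T-box factor that commits cells to paraxial mesoderm, had 297, 275 and 412 in mutant pools 1, 2 and 3, against 501, 607 and 541 in control pools 1, 2 and 3. The genotypes did not overlap, and the log2 difference of −0.76 (SE 0.18) did not pass (adjusted p = 0.102). With 1 probe set per gene, 832 of 7245 had all mutant pools below all control pools, so that separation by itself is common. Gli3, a transcriptional mediator of Hedgehog signalling, had −0.29 (adjusted p = 0.290), also with no overlap between the genotypes. Of the other 10, Hes7 had −0.25 (adjusted p = 0.440) with no overlap between the genotypes, and 9 overlapped. Those 9 were Foxc1 at −0.48, Snai2 at −0.33, Zic2 at −0.23, Hey1 at −0.19, Gli2 at −0.17, Twist1 at −0.03, Six4, a homeobox factor of muscle precursors, at −0.08, Eya1, its coactivator, at 0.02, and Foxd1 at 0.05. The plot of differences for these genes places Pax3 above all 13 of them.

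**Figure D4:**
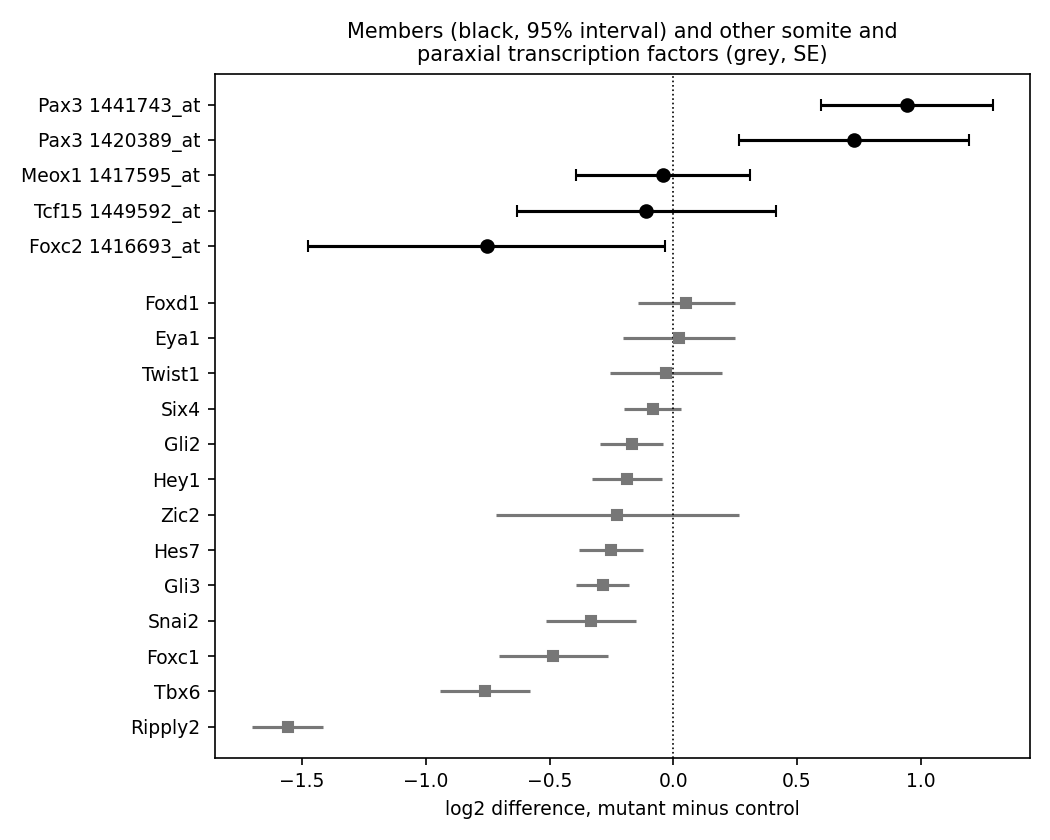
Log2 difference, mutant minus control (horizontal axis), for the 5 probe sets of Pax3, Meox1, Tcf15 and Foxc2 (black, 95% confidence interval) and for 13 other somite and paraxial transcription factors (grey, SE), from 3 pools per genotype. The brighter Pax3 probe set lies at 0.94, the highest of all, and Ripply2 at −1.56, the lowest.

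Of 12 tested genes of somite epithelium and boundary, 0 passed in either direction, with a median of −0.23 and 9 negative values. Pcdh8, a protocadherin of the forming somite, had −1.29 (adjusted p = 0.0894). Dll1, a Notch ligand, had −0.72 (0.149), and Dll3, a related inhibitory ligand, −0.67 (0.242). In the fit with one probe set per gene, which called 1.70% of genes, the adjusted p was 0.0485 for Pcdh8 and 0.0145 for Pax3. The same fit called 3 epithelial, 1 endothelial, 3 lateral and intermediate mesoderm and 9 p53 response genes from the lists below. It also called 1 gut endoderm or notochord marker, 1 blood marker and 0 neural markers. Among 9 tested genes known as partners or downstream genes of the 4 factors, 0 passed, with a median of −0.08. Met, the receptor that migrating muscle precursors need and that Pax3 is known to activate, had 497, 501 and 461 in mutant pools 1, 2 and 3, against 382, 299 and 324 in control pools 1, 2 and 3. All mutant pools lay above the control pools, and the log2 difference of 0.54 (SE 0.15) did not pass (adjusted p = 0.150). With 1 probe set per gene, 705 of 7245 had all mutant pools above all control pools, so that separation by itself is common. Cited2, a transcriptional coactivator, had −0.29 (adjusted p = 0.420).

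Since Pax3 is also expressed in the dorsal neural tube and neural crest, markers of these tissues were set beside it. Of 21 such markers 9 were tested, and 0 passed. Of these 9 differences 5 were positive, and their median was 0.12 on the log2 scale. Their summed signal was 13531 to 16742 in mutant pools and 12593 to 17611 in control pools, so the genotypes overlapped. Tfap2a, a factor of neural crest and surface ectoderm, had 444, 406 and 545 in mutant pools 1, 2 and 3, against 201, 285 and 394 in control pools 1, 2 and 3. All its mutant pools were higher, as for 705 of the 7245 genes tested (log2 difference 0.71, SE 0.24, adjusted p = 0.239). Sox21, a neural factor, had 0.54 (adjusted p = 0.326), Sox2, which marks the neural tube, 0.23 (0.575), and Msx1, of the dorsal neural tube and mesenchyme, −0.44 (0.563). Olig3, Pax6, Sox1 and Nes lay under the filter, and Pax7, Sox10, Foxd3 and Wnt1 were not analysed here. The part of neural cells in the rise of Pax3 was not tested.

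Epithelial markers had higher summed signal in mutant PSM, as Pax3 did. Of the 7245 genes tested with 1 probe set each, 23 rose and 3451 had positive values. Of 10 tested markers of surface ectoderm and epithelia, 1 rose, Epcam, an epithelial adhesion gene (log2 difference 0.60, adjusted p = 0.0356), and all 10 values were positive, with a median of 0.49. Their summed signal was 25753 to 27260 in mutant pools and 17299 to 19258 in control pools, without overlap. The simple keratins Krt8 and Krt18 gave most of that sum, each with a log2 difference of 0.44 (adjusted p = 0.0852 and 0.0912). Epcam was not called when any 1 pool but control 1 was left out (adjusted p 0.0591 to 0.170). Perp, a desmosome gene and p53 target, had 1.24 (adjusted p = 0.0674) and Krt19, a simple keratin, 1.12 (0.0507). The defining surface ectoderm factors Trp63, Grhl2, Grhl3 and Tfap2c lay under the filter. The part of such cells in the difference of Pax3 was not tested.

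Markers of vessels, where Foxc2 is also expressed, and of lateral mesoderm had lower summed signal in mutant PSM. Of the 7245 genes tested with 1 probe set each, 39 fell and 3451 had positive values. Of 7 tested endothelial markers, 1 fell, Kdr, the main VEGF receptor (−0.82, adjusted p = 0.0314), and all 7 values were negative, with a median of −0.59. Their summed signal was 5595 to 8394 in mutant pools and 10320 to 11187 in control pools. Kdr was not called when any 1 pool but control 1 was left out (adjusted p 0.0518 to 0.164). Fli1, an endothelial and blood factor, had −0.77 (adjusted p = 0.09997) and Aplnr, the apelin receptor, −0.72 (0.0912). Aplnr gave most of the summed signal, with 5730, 3500 and 4903 in mutant pools 1, 2 and 3, against 8119, 7635 and 7134 in control pools 1, 2 and 3. Cdh5, the cadherin that defines endothelium, had −0.06 (adjusted p = 0.941) and Tek, the angiopoietin receptor, −0.10 (0.876). Both overlapped between the genotypes and were positive within the high-ratio arrays, at 0.35 and 0.29. Of 6 tested lateral and intermediate mesoderm markers, 2 fell, Prrx1 (−1.32, adjusted p = 0.00445) and Hand2 (−0.95, adjusted p = 0.0300). Both encode transcription factors of limb and lateral mesoderm. Hand2 was not called without mutant 1, mutant 2, control 2 or control 3 (adjusted p 0.0930 to 0.116), and Prrx1 was called in all 6 such fits. Foxf1, a factor of splanchnic mesoderm, had −0.87 (adjusted p = 0.0503). Isl1 had −0.39 (0.437), Gata6 −0.21 (0.696) and Osr1, a marker of intermediate mesoderm, 0.00 (0.9999). The median of these 6 markers was −0.63, and their summed signal was 3716 to 4320 in mutant pools and 6528 to 6927 in control pools. The part of these cells in the difference of Foxc2 was not tested.

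**Figure D5:**
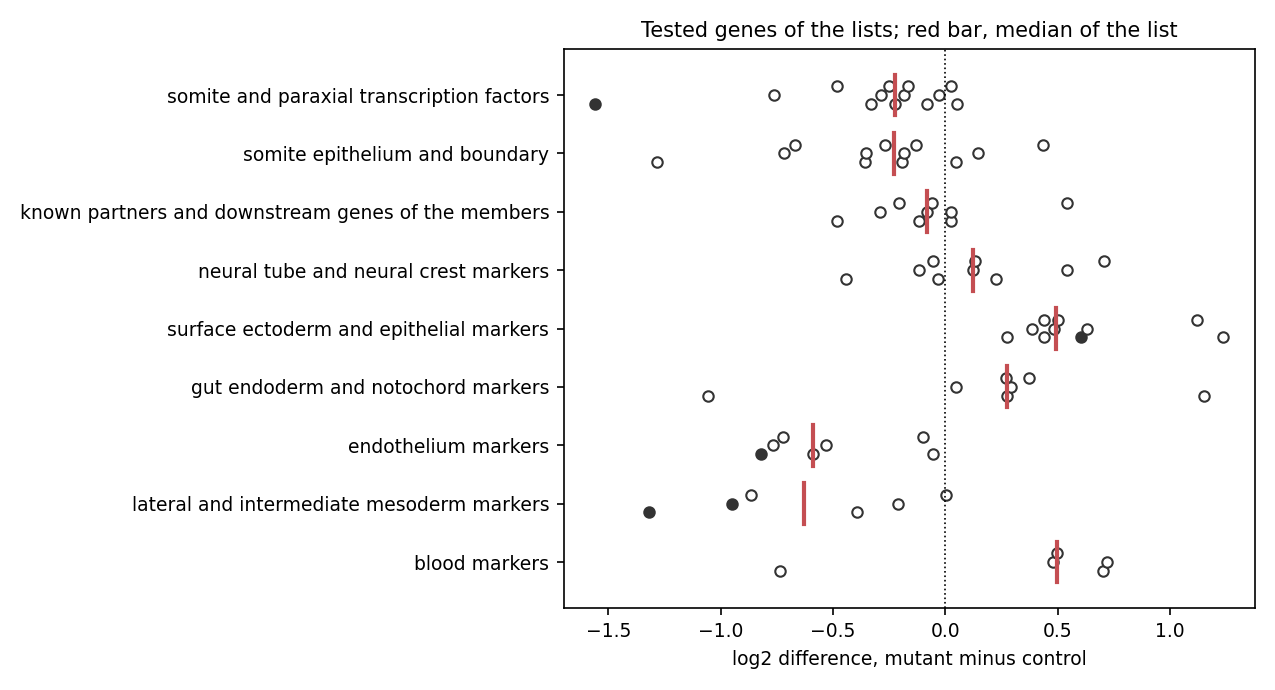
Log2 difference, mutant minus control (horizontal axis), of every tested gene in 9 lists (vertical axis), from 3 pools per genotype. Filled points passed the test (adjusted p under 0.05), open points did not, and the red bar is the median of the list. Epithelial markers lie to the right of 0 and endothelial markers to the left.

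Of 7 tested gut endoderm and notochord markers 0 passed, with a median of 0.27 and summed signals of 10642 to 12987 in mutant and 8404 to 10133 in control pools. Spink1 had 1.15 (adjusted p = 0.278), Sox17 −1.06 (0.0507) and Apela 0.29 (0.334). Of 5 tested blood markers 0 passed, with a median of 0.50 and summed signals of 44361 to 62237 in mutant and 31873 to 44358 in control pools. The lowest mutant sum was thus nearly equal to the highest control sum, and Hbb-bh1 and Hbb-y gave most of the signal. Within the high-ratio arrays the median of the blood markers was 0.87, and within the others 0.007. Car2 had 0.72 (adjusted p = 0.0753), Hbb-bh1 0.50 (0.108) and Tal1 −0.74 (0.202). Of 13 tested genes of the p53 response 6 rose, Cdkn1a, Ccng1, Trp53inp1, Phlda3, Zmat3 and Plk2, with log2 differences of 2.52, 2.33, 2.30, 1.90, 0.96 and 0.80 in this order. The median of the p53 list was 0.96. Over all genes, with 1 probe set each, 23 of 7245 rose. With 1 pool left out, Zmat3 was not called without mutant 1, control 2 or control 3 (adjusted p 0.0624 to 0.130) and Plk2 was called only without control 1 (0.0557 to 0.178 in the other 5 fits), while the other 4 were called in all 6 fits.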

How the data were processed

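The table the authors deposited holds linear intensities, summarised per probe set and scaled per array; per the submitters' processing notes, Affymetrix Expression Console and MAS5 were used. Versions, scaling target, genome build and the rule for the 19606 probe sets listed are not given in the sources used here. Per the labels' protocols, RNA was isolated with the PicoPure kit and labelled with a 3' IVT Express kit. The authors' scaling was kept, 55 array controls were left out, and no detection calls were used. GEO's platform annotation gave 17348 of 19551 probe sets 1 symbol, 494 several and 1709 none.

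Log2(signal + 1) was fitted by genotype with limma 3.58.1 (R 4.3.3, intensity trend, two-sided), after a filter at the 40th percentile (geometric mean signal 349). Tests were checked on simulated data. Log2 differences are mutant minus control, and list genes use their brightest tested probe set. For Pcdh8, Snai2, Sox17, Hbb-bh1 and Hbb-y that is an _x_at probe set, which may cross-hybridise. Members and lists were chosen with earlier results of these data known. Named genes were all probe sets of the 4 genes, the 3 genes of each list with the smallest p, those called, and the 3 most alike genes; other list genes mentioned were chosen after their values were seen. The number of arrays limits the precision, and p-values measure the spread between these pools. The labels do not state that replicate numbers pair the pools, and the main fit used no pairing. Residuals of equal replicate numbers correlated at 0.20, −0.45 and 0.37, too few values to decide whether the numbers pair pools. The RefSeq promoter table (GRCm38.p6) matched 0 of the 4 genes, so no motif was searched. Alternatives were quantile normalization, median centring, other offsets and filters, no trend, array weights, replicate and spike-in ratio blocks, gene level, probe-set averaging, no cross-hybridising probe sets and leaving out each pool.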

Additional observations from a re-analysis of the deposited data

How the results depend on the processing

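The brighter Pax3 probe set kept its direction and its call in all 12 alternative fits that used all pools (log2 difference 0.84 to 0.98, adjusted p 0.00176 to 0.0464). With 1 pool left out it lay between 0.84 and 1.03, and 2 of 6 fits kept the call. It had no value under the filter at the 60th percentile, which leaves it out. The dimmer Pax3 probe set lay between 0.53 and 0.90 with 1 pool left out and passed in none of its 15 fits by limma (lowest adjusted p = 0.0537; its unadjusted p with all pools was 0.00556). The brighter probe set differed by 1.17 among high-ratio arrays and by 0.79 among the rest, and the dimmer one 1.08 and 0.31. Foxc2 stayed negative, from −1.01 to −0.38 with 1 pool left out, and passed only with array quality weights (−0.89). Meox1 had −0.17 to 0.077 with 1 pool left out (positive without mutant 2 or control 3, at 0.025 and 0.077), 0.028 with the spike-in ratio block and 0.21 within the high-ratio arrays. Tcf15 had −0.37 to 0.055 with 1 pool left out (positive without mutant 3 or control 2, at 0.055 and 0.029), and 0.31 and −0.56 within the sets. Meox1 minus Tcf15 lay between −0.10 and 0.27 with 1 pool left out, and turned to −0.10 and −0.06 without mutant 3 and control 2. The cause of these changes was not tested.

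The count of called probe sets, 81 in the main test, was 1196 with array quality weights, 555 with the spike-in ratio block, 48 with the filter at the 60th percentile, 123 at the gene level, and 23 to 151 with 1 pool left out. With the replicate block it was 120, and Pax3 passed (adjusted p = 0.0318). The block changed no call of the 4 genes. The gene-level and spike-in ratio fits of the lists were chosen after seeing the data. With 1 pool left out, 1 to 2 of the other somite transcription factors were called, 0 to 2 epithelial, 0 to 2 endothelial and 1 to 3 lateral mesoderm markers. Signal over background was not measured here, since no detection calls were used.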
